A study of Mus musculus with 3 samples.

Results

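Chemokines and their receptors were followed across the mononuclear cells of the mouse diaphragm. Members were chosen by symbol: the Ccl, Cxcl, Ccr, Cxcr and Ackr families together with *Cx3cl1*, *Cx3cr1*, *Xcl1*, *Xcr1*, *Ccrl2*, *Pf4* and *Ppbp*, each with at least 10 unique molecular identifiers (UMIs, 1 per captured RNA molecule) over the 3 libraries. Of 32285 annotated genes, 54 were members: 32 ligands, 17 signalling receptors and 5 atypical receptors. A further 16 features matched the names but fell under 10 UMIs, and 11 of these were at 0. The members nearest the limit were *Ccr3* with 10 UMIs and *Ccr4* with 17, and the nearest genes outside it were *Cxcl17* with 9 and *Ccl28* with 5.

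Single-cell libraries were made from cells of the costal diaphragm, freed with collagenase II and sorted to exclude DAPI-stained dead cells. The WT CD library came from C57BL/6J mice on control diet, a standard chow, for 6 months. The WT HFD library came from C57BL/6J mice on a high-fat diet with 45% of energy from lipid for 6 months, and the KO HFD library from whole-body *Thbs1*-knockout mice (thrombospondin-1, a matrix-associated protein) on the same diet for the same time. Mice were male, a pair was pooled per library, and all cells were isolated on the same day. All mice ate chow until 2 months of age, when the high-fat groups changed diet and the control group stayed on chow. Each group was thus 1 library, so no difference below was tested. Intervals are 95% intervals that cover counting error only. In UMIs summed over a library, fewer cells of a type and less RNA per cell cannot be told apart. Levels within a class were divided by the UMIs of that class, so the number of its cells does not enter them. Such a level alone does not separate fewer cells with a gene from less of it per cell.

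The libraries held 4132 cells and 34312860 UMIs (WT CD), 3774 cells and 31967976 UMIs (WT HFD), and 4369 cells and 36478779 UMIs (KO HFD). The median cell carried 7632.5, 8041.5 and 7554 UMIs, in that order. Few cell barcodes were shared: 7 between WT CD and WT HFD, 7 between WT CD and KO HFD, and 2 between WT HFD and KO HFD. *Thbs1* itself was counted at 194, 232 and 227 CPM in fibro-adipogenic progenitors (FAPs) of WT CD, WT HFD and KO HFD, and at 101, 335 and 93.8 CPM in macrophages. CPM are the UMIs of a gene scaled to a fixed total of UMIs, here over the summed cells of a class in a library. UMIs from the 3′ end do not show whether the deleted part of the gene is present, so these values check nothing about the genotype.

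Chemokines are small secreted proteins that bind G protein-coupled receptors and guide the migration of leukocytes. CC and CXC families are named for the spacing of their first cysteines, and one receptor often binds several ligands. Atypical receptors of the Ackr family bind chemokines without G protein signalling and are known to scavenge or transport them. *Ccrl2* was counted with them here. In skeletal muscle, FAPs are mesenchymal stromal cells, muscle stem cells (MuSCs) repair fibers, and resident and recruited macrophages take up debris.

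Cells were assigned to classes by marker genes, none of which was a member. FAPs formed the largest class, with 2273, 1996 and 2443 cells in WT CD, WT HFD and KO HFD, or 55.0%, 52.9% and 55.9% of each library. Macrophages and monocytes, called macrophages below, numbered 263, 442 and 522 (6.37%, 11.7% and 11.9%). B cells numbered 397, 155 and 92 (9.61%, 4.11% and 2.11%). MuSCs numbered 337, 265 and 441, blood endothelial cells 290, 286 and 241, and lymphatic endothelial cells 64, 122 and 75. Smaller classes, each with at least 50 cells in all, were mesothelial, Schwann, dendritic, T or NK, neutrophil and erythroid cells. No class was given to 820 cells. Clusters built without the members and named by the same marker lists had the class of the gate for 97.4% of gated cells (11162 of 11455). Gates were set beside these clusters, so this agreement is not an independent check. Of the 109 dendritic cells, 72 lay near the gate. Dendritic cells also carried macrophage markers. The 8 macrophage markers summed to a median of 12.4 per 10000 UMIs in them, and the 7 dendritic markers to 8.65.

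Members took 117628 UMIs in WT CD, 166655 in WT HFD and 176098 in KO HFD, or 3428, 5213 and 4827 CPM of the whole library. Ligands made up 88.1% of all member UMIs (405517), atypical receptors 8.85% (40764) and signalling receptors 3.06% (14100). Over the 3 libraries together, macrophages held 46.9% of ligand UMIs (46.8 to 47.1), and FAPs 34.0% (33.8 to 34.1). The order was not the same in each: FAPs held 42.2% and macrophages 35.2% in WT CD, against 27.9% and 53.3% in WT HFD and 34.6% and 48.2% in KO HFD. Ungated cells held 5.01% over the libraries, lymphatic endothelial cells 4.99%, MuSCs 2.62%, blood endothelial cells 2.21% and T or NK cells 1.60%. Their order also varied: T or NK cells held 3.82% in WT CD, more than lymphatic endothelial cells (3.28%), but 0.889% and 0.871% in the high-fat libraries. Of signalling receptor UMIs over the libraries, macrophages held 62.8% (62.0 to 63.6), B cells 10.7%, dendritic cells 5.13%, MuSCs 3.95% and FAPs 2.52%. B cells held 21.1% in WT CD, 9.23% in WT HFD and 3.87% in KO HFD, where dendritic cells (7.10%) and MuSCs (4.67%) held more. Macrophages led in each library, with 51.0%, 68.3% and 68.0%. FAPs held 85.5% of atypical receptor UMIs. Most signalling receptor UMIs were therefore in leukocytes and most atypical receptor UMIs in stromal cells. *Ackr3* alone held 30897 of the atypical receptor UMIs. *Ccrl2*, counted among the atypical receptors, went the other way. Its median over the libraries was 9.96 CPM in FAPs, 121 in macrophages and 1003 in neutrophils.

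**Figure D1:**
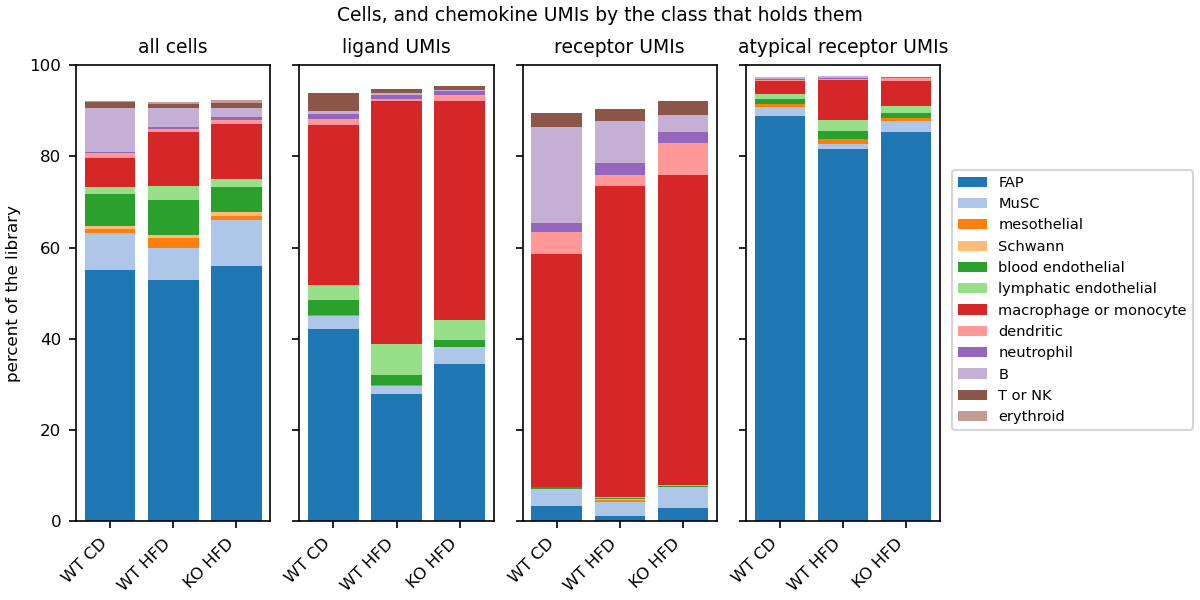
Stacked bars give the percent of cells and of ligand, signalling receptor and atypical receptor UMIs in each cell class, for each of the 3 libraries; classes with few UMIs and ungated cells are not drawn, so bars end below 100%. Macrophages take the largest part of receptor UMIs and FAPs take 85.5% of atypical receptor UMIs over the 3 libraries.

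**Figure D2:**
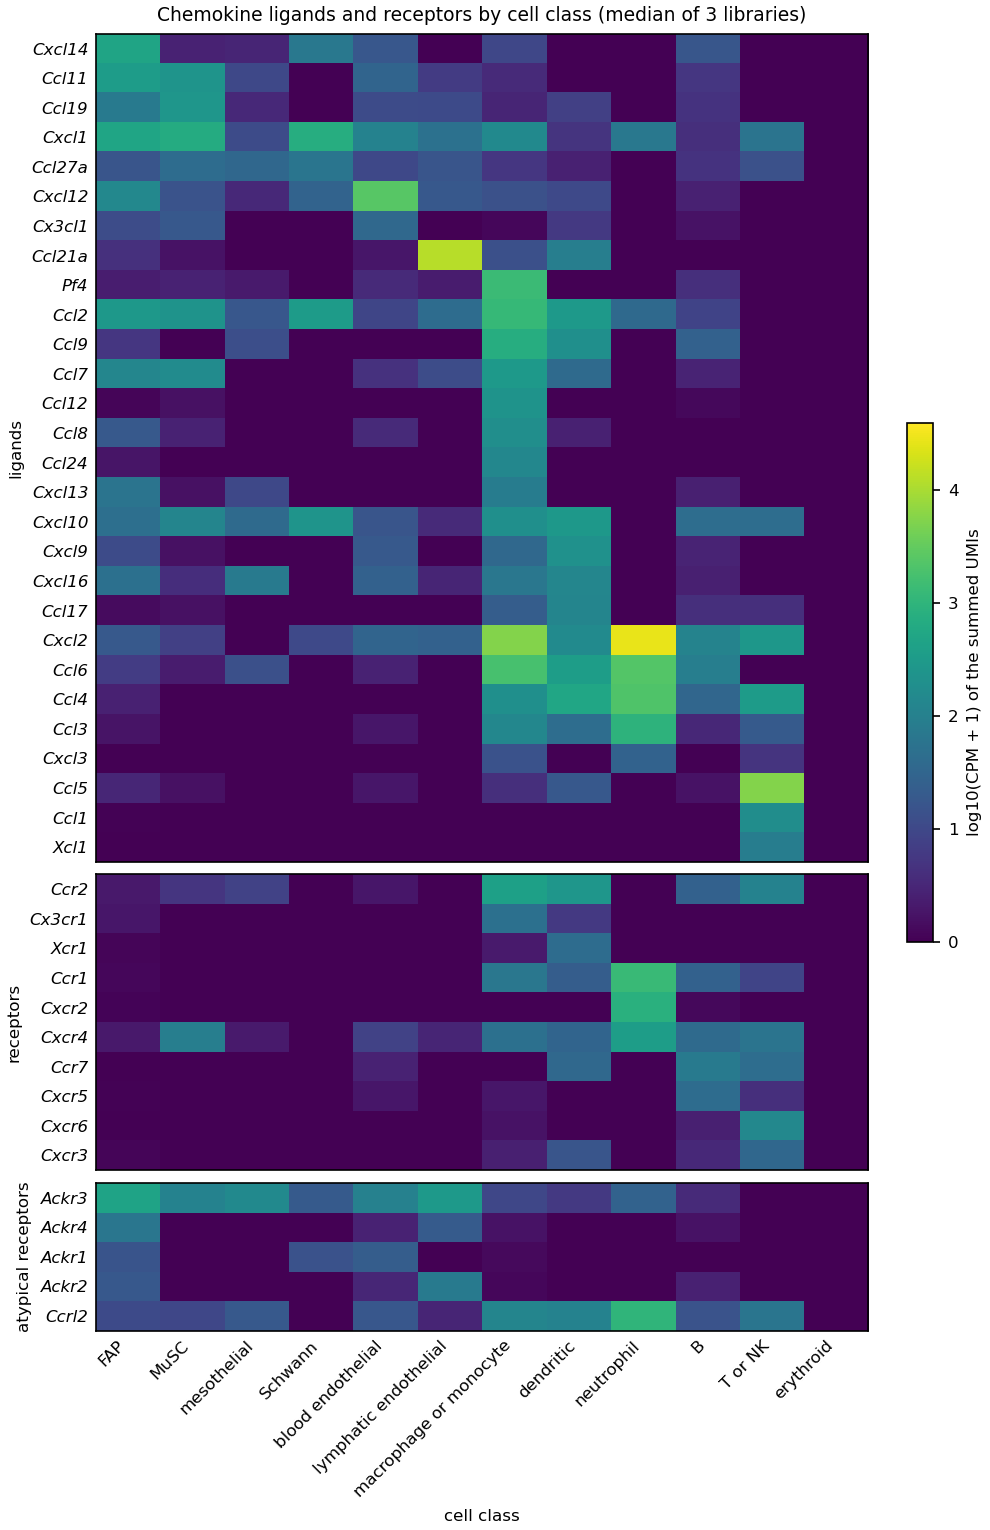
Heat map of the members reported here whose median over the libraries reached 20 CPM in a class, in rows, by the 12 cell classes, in columns; color gives log10(CPM + 1), the median of the 3 libraries. *Ccl21a* leads among ligands in lymphatic and *Cxcl12* in blood endothelial cells, whereas *Cxcl1* leads in FAPs, MuSCs and Schwann cells and *Cxcl2* in macrophages, neutrophils and B cells.

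Ligands of *Cxcr2*, the receptor that draws neutrophils, were split between stromal cells and macrophages. *Cxcl1* and *Cxcl2*, which encode close paralogs, are neighbors on chromosome 5 (GRCm38, plus strand, 90891241 to 90893115 and 90903871 to 90905938). FAPs held 78.5% of *Cxcl1* UMIs, whereas macrophages held 89.1% of *Cxcl2* UMIs. *Cxcl1* in FAPs stood at 514 CPM (504 to 524) in WT CD, 499 (489 to 509) in WT HFD and 727 (715 to 738) in KO HFD. WT CD and WT HFD overlapped, and KO HFD lay above both, by less than 1.5-fold. *Cxcl2* in FAPs was at 11.3, 18.7 and 25 CPM and was seen in 4.14%, 6.11% and 5.73% of them, or 1.69%, 3.01% and 2.39% with each cell thinned to 3000 UMIs. Thinning left out 84, 39 and 62 shallower FAPs and 16, 18 and 28 macrophages. In macrophages *Cxcl2* reached 4232 CPM (4160 to 4305), 9012 (8925 to 9098) and 5628 (5569 to 5688), highest in WT HFD. In that library 55 of 442 macrophages, those with cavity macrophage markers described below, held 51.5% of these UMIs, and without such cells WT HFD and KO HFD overlapped. In the few neutrophils (13, 19 and 25 cells) *Cxcl2* stood at 31842, 28014 and 18792 CPM, the highest level of any member in any class. *Cxcl5*, another *Cxcr2* ligand, was low in FAPs, at 1.58, 2.01 and 3.83 CPM. Their receptor *Cxcr2* had 88.9% of its UMIs in neutrophils, at 931, 822 and 811 CPM, and the intervals of the 3 libraries overlapped.

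The 250 bases before the RefSeq start (GRCm38.p6) are shown for *Cxcl1* (chr5:90890995-90891244, plus strand), *Cxcl2* (chr5:90903649-90903898, plus strand) and *Cxcl10* (chr5:92348890-92349139, minus strand). The first pair moved together over all macrophages (below) yet had different main senders, and *Cxcl10* was shared by both. Without the cells with cavity macrophage markers (below), neither of the pair was called in macrophages in either comparison. Capitals mark matches to a consensus motif of NF-kappaB, a transcription factor that activates inflammatory genes, on either strand. Each sequence runs 5′ to 3′ on the strand of the gene.
Cxcl1: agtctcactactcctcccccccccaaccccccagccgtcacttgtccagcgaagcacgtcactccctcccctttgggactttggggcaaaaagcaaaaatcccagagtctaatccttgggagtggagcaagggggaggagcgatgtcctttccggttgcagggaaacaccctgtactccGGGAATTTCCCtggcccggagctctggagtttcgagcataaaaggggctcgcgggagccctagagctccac
Cxcl2: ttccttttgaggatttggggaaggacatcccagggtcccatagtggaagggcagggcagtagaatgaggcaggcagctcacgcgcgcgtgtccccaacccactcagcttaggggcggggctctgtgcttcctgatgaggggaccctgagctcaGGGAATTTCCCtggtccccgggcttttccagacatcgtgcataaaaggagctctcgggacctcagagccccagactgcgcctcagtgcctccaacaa
Cxcl10: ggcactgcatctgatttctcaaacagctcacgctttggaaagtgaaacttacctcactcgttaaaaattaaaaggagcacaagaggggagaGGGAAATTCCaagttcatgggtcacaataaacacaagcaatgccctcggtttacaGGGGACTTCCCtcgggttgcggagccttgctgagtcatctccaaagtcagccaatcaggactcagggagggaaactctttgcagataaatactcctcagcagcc
The match began 71 bases before the start in *Cxcl1* and 97 bases before it in *Cxcl2*; each block reads as a match on both strands. *Cxcl10* had matches at 159 and 104 bases. The corresponding window of *Cxcl14* (chr13:56296552-56296801, minus strand), the leading ligand of a FAP subset, had 0 matches. Over the full 300-base windows (250 bases before and 50 after the start), 12 of 42 members with a promoter in the table held a match (28.6%), against 2581 of 27025 genes (9.55%) and 2779 of 32851 promoters (8.46%). By kind, these were 7 of 24 ligands, 3 of 13 receptors and 2 of 5 atypical receptors. A match is a run of letters and says nothing of binding.

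FAPs also led in *Cxcl14*, a CXC chemokine with disputed receptors (chromosome 13, 56288643 to 56296551), and *Ccl11*, or eotaxin, which attracts eosinophils through *Ccr3*. *Cxcl14* was at 411 CPM in WT CD, 486 in WT HFD and 496 in KO HFD, with 96.8% of its UMIs in FAPs. *Ccl11* was at 347 (339 to 356), 354 (345 to 362) and 354 (346 to 362) CPM, with 90.3% of its UMIs in FAPs, and its 3 intervals overlapped. The other eotaxin gene, *Ccl24*, was a macrophage gene instead: 92.9% of its UMIs lay there. *Ccr3* had 10 UMIs in all, 4 of them in macrophages. Of the 4 eosinophil markers, *Epx* was at 0 in every library. Together the 4 summed to 24.1, 2.44 and 3.62 CPM, led by *Prg2* in WT CD and KO HFD and by *Il5ra* in WT HFD. The paper describes eosinophils within a mixed leukocyte cluster.

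*Cxcl12*, which retains leukocytes and progenitor cells through *Cxcr4*, was shared by blood endothelial cells (47.0% of UMIs) and FAPs (46.4%), and FAPs held more of it in KO HFD alone. Per cell class it was far higher in blood endothelium: 2507 CPM (2416 to 2602) in WT CD, 2547 (2456 to 2640) in WT HFD and 2124 (2034 to 2218) in KO HFD, against 105, 137 and 139 in FAPs. WT CD and WT HFD endothelium overlapped, and KO HFD was lower by less than 1.5-fold. *Cxcr4* was spread over macrophages (35.9% of UMIs) and MuSCs (26.5%), while in WT CD, of 652 UMIs, B cells (163), MuSCs (154) and macrophages (152) held about as many each. In MuSCs it stood at 93.9 (79.6 to 110), 67.4 (55.6 to 81.1) and 93.6 (82.8 to 105) CPM, and in macrophages at 49.0, 44.4 and 60.9. It was the leading signalling receptor of MuSCs, where *Ccr2*, at 2.58 CPM over the libraries, came next.

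*Ccl21a* and *Ccl19* guide dendritic and T cells to lymph vessels and nodes through *Ccr7*. *Ccl21a* marked lymphatic endothelium, with 92.7% of its UMIs there, at 8612 CPM (8316 to 8916) in WT CD, 12742 (12494 to 12993) in WT HFD and 12876 (12566 to 13192) in KO HFD. The high-fat libraries overlapped and stood above WT CD, by just under 1.5-fold. Both genes have near-identical copies in the annotation, so their counts are uncertain. *Ccl19* was instead stromal, with 66.1% of UMIs in FAPs and 24.4% in MuSCs. It was higher in MuSCs, at 239, 284 and 261 CPM, than in FAPs, at 74.5, 74.3 and 68.6. *Ccr7* had 64.3% of its UMIs in B cells and 18.9% in dendritic cells over the libraries, but in KO HFD dendritic cells held 121 and B cells 80. In B cells it was at 73.0 (65.1 to 81.5), 66.8 (53.5 to 82.2) and 127 (101 to 159) CPM, higher in KO HFD. In dendritic cells, at 35.1, 14.3 and 198 CPM, 1 cell held 41.3% of the KO HFD UMIs.

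*Ccl2* and *Ccl7*, on chromosome 11 (82035571 to 82037453 and 82045712 to 82047525), recruit monocytes through *Ccr2*. *Ccl2* UMIs lay evenly in macrophages (44.3%) and FAPs (44.3%), and *Ccl7* UMIs more in FAPs (56.1%) than in macrophages (31.5%). In FAPs *Ccl2* was at 208, 293 and 288 CPM and *Ccl7* at 101, 129 and 166 CPM. In macrophages *Ccl2* was higher, at 1222 (1183 to 1261), 1242 (1210 to 1275) and 1066 (1040 to 1092) CPM. The neighboring *Ccl12* was a macrophage gene (96.3% of UMIs; 227, 195 and 264 CPM). *Ccl8* was seen in 5.10%, 10.7% and 8.15% of FAPs (2.01%, 4.85% and 3.86% thinned), at 9.94 (8.62 to 11.4), 22.3 (20.2 to 24.6) and 18.4 (16.6 to 20.2) CPM. In macrophages 1 cell held 58.8% of the *Ccl8* UMIs of WT CD, so that its level of 355 CPM there, against 189 and 165, rests largely on that cell.

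*Ccr2* was the leading receptor of macrophages, with 81.9% of its UMIs in that class. It stood at 453 CPM (429 to 477) in WT CD, 335 (319 to 353) in WT HFD and 413 (397 to 429) in KO HFD, and was seen in 68.1%, 48.0% and 63.8% of cells (53.0%, 39.9% and 49.4% thinned). WT HFD was the lowest, by less than 1.5-fold. Dendritic cells, which carried macrophage markers as well, had *Ccr2* at 164, 287 and 260 CPM. *Cx3cr1*, the receptor of fractalkine on patrolling monocytes and tissue macrophages, was at 48.1, 48.5 and 45.6 CPM in macrophages, with overlapping intervals. Its gene overlaps *Gorasp1*, *Csrnp1* and *Xirp1* on the same strand, so that its count is uncertain. Its ligand *Cx3cl1* had 70.6% of UMIs in FAPs (10.7, 9.86 and 11.9 CPM) but was higher in blood endothelial cells (38.3, 30.1 and 35.2 CPM).

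Among other macrophage ligands, *Ccl6* and *Ccl9* are CC chemokines of rodents that signal through *Ccr1*. *Ccl6* was at 2058, 1410 and 1794 CPM and was seen in 90.5%, 93.7% and 91.4% of macrophages. *Ccl9* was at 810, 701 and 740 CPM. *Ccl3* and *Ccl4*, which activated myeloid cells make, were at 131, 206 and 103 CPM and at 191, 257 and 177 CPM. *Ccr1* was at 92.0, 66.0 and 60.3 CPM in macrophages but at 1755, 1326 and 1242 CPM in neutrophils. Without the cells with cavity macrophage markers it was at 91.9, 49.9 and 58.0 CPM in macrophages.

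Lymphoid axes were carried by few cells. *Ccl5*, which cytotoxic lymphocytes make, had 81.5% of its UMIs in T or NK cells (52, 33 and 44 cells), at 11053, 5549 and 3358 CPM, and single cells held 25.3%, 21.8% and 35.7% of these UMIs. *Xcl1*, made by NK and CD8 T cells, had 98.0% of its 99 UMIs in the same class. Its receptor *Xcr1*, a marker of cross-presenting dendritic cells, had 52.5% of its UMIs in dendritic cells (8 of 27 in WT HFD), at 41.0, 38.2 and 73.5 CPM. *Cxcr6*, a receptor of tissue-resident T cells, was at 53.8 (31.3 to 86.2), 137 (92.0 to 197) and 229 (174 to 297) CPM in T or NK cells. WT CD lay below both high-fat libraries, whose intervals overlapped. Of the dissociation genes in T or NK cells, 0 of 11 were higher and 2 lower in the diet comparison, and 4 of 12 were higher and 1 lower in the genotype comparison. Over all genes in T or NK cells, 2.71% were higher and 2.27% lower in the diet comparison, and 6.15% and 2.28% in the genotype comparison. The *Cxcr6* ligand *Cxcl16* was even in FAPs, at 48.3, 45.6 and 48.3 CPM. *Cxcr3*, the receptor of *Cxcl9* and *Cxcl10*, was held by few UMIs, 125 in all.

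B cells carried *Cxcr5*, which guides them to follicles (87.2% of UMIs), and *Ccr6* (82.8%). *Cxcr5* was at 41.4, 34.1 and 47.8 CPM, with overlapping intervals, while *Cxcr4* was at 37.9 (32.3 to 44.2), 38.7 (28.8 to 50.9) and 98.8 (75.8 to 127) CPM, highest in KO HFD. Genes induced by tissue dissociation also stood higher in KO HFD than in WT HFD B cells: 3 of 12 were called higher (*Ier3*, *Socs3* and *Jun*) and 0 lower, with a median log2 ratio of 0.45, where 1.25% of all genes in B cells were higher and their median was -0.12. Their part in the *Cxcr4* and *Ccr7* values was not tested. The whole list of 7 B cell markers summed to 5234, 491 and 584 CPM of the libraries. It was led by *Ighm*, with 161267, 8613 and 18082 UMIs. The part of these differences in B cell number and *Ighm* level in the other B cell values was not tested.

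Within FAPs the ligands were divided among marker-gated subsets. The *Mme* gate (*Mme*, *G0s2*, *Hsd11b1*, *Vtn*; 636, 578 and 737 cells) held 69.1% of all *Cxcl14* UMIs, at 1172 CPM (1142 to 1203) in WT CD, 1373 (1341 to 1406) in WT HFD and 1302 (1273 to 1332) in KO HFD. In the *Dpp4* gate (*Dpp4*, *Sema3c*, *Cd55*, *Efhd1*, *Cmah*; 503, 640 and 570 cells) *Cxcl14* was at 32.4, 45.9 and 65.1 CPM. The *Mme* gate also led in *Ccl11*, at 754, 694 and 708 CPM, against 289, 302 and 277 in the *Dpp4* gate and 11.4, 1.25 and 10.9 in the *Fmod* gate. The *Mme* gate was thus the highest of the FAP gates in each library for *Cxcl14* and *Ccl11*.

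The *Dpp4* gate led instead in the atypical receptors *Ackr3* and *Ackr2*. *Ackr3*, a scavenger of CXCL12, was at 849 (824 to 874), 613 (595 to 632) and 735 (714 to 758) CPM there, against 504, 350 and 424 in the *Mme* gate. *Ackr2*, a scavenger of inflammatory CC chemokines, had 63.2% of its UMIs in the *Dpp4* gate, at 28.7, 49.1 and 46.0 CPM, and at no more than 7.83 CPM in the *Mme* gate. *Ccl19* ran the other way: it was at 16.9, 18.6 and 23.5 CPM in the *Dpp4* gate, 120, 140 and 100 in the *Gdf10* gate and 114, 145 and 124 in the *Fmod* gate. *Ccl2* in the *Dpp4* gate was at 175 (164 to 186), 383 (368 to 397) and 370 (354 to 385) CPM, higher in both high-fat libraries, while in the *Mme* gate it was at 247, 267 and 210. *Cxcl13*, which attracts B cells through *Cxcr5*, was highest in the small *Ptx3* gate (24, 26 and 59 cells), at 1484, 765 and 192 CPM.

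**Figure D3:**
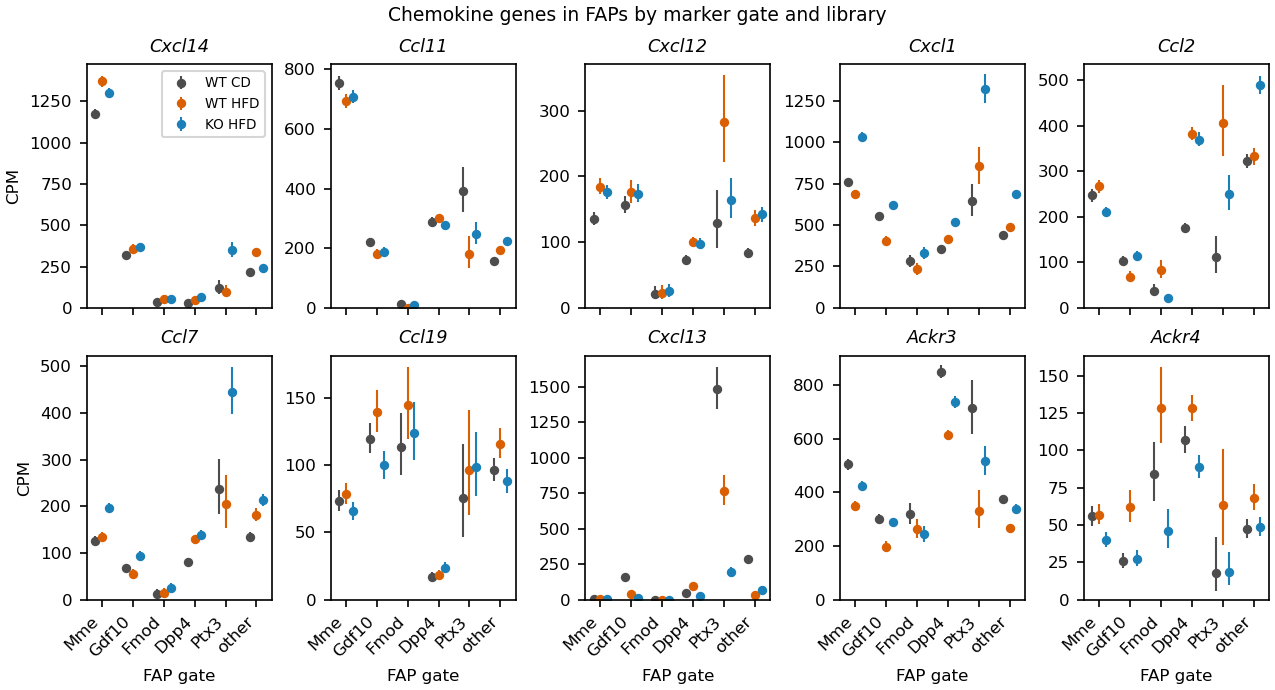
CPM of 10 members in the marker-gated FAP subsets of each library; bars on the points are 95% Poisson intervals, which cover counting error only. *Cxcl14* and *Ccl11* stand highest in the *Mme* gate and *Ackr3* in the *Dpp4* gate in each library.

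Over all FAPs, *Ackr3* (chromosome 1, 90203980 to 90216751) was seen in 78.4%, 76.9% and 77.1% of cells (62.0%, 56.2% and 58.5% thinned), at 521 (511 to 531), 408 (399 to 417) and 463 (454 to 472) CPM. FAPs held 91.5% of its UMIs. *Ackr4*, a scavenger of CCL19 and CCL21, had 96.4% of its UMIs in FAPs, at 62.5 (59.1 to 66.1), 89.1 (84.9 to 93.5) and 52.7 (49.7 to 55.9) CPM. It was highest in WT HFD, and the same order held in the *Dpp4* gate (107, 128 and 88.9 CPM). *Ackr2* was at 10.7 (9.35 to 12.3), 22.4 (20.3 to 24.6) and 17.2 (15.5 to 19.0) CPM, lowest in WT CD. *Ackr1*, which carries chemokines across venules, had 85.4% of its UMIs in FAPs, the largest class. Its median over the libraries was 14.5 CPM in FAPs and 21.7 in blood endothelial cells. The gene overlaps *Cadm3* on the same strand, so that its count is uncertain. In blood endothelium *Ackr1* was at 14.3 (8.15 to 23.2), 66.2 (52.3 to 82.8) and 21.7 (13.4 to 33.2) CPM, highest in WT HFD, from 16, 77 and 21 UMIs.

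The diet comparison asked whether members differed between WT cells on high-fat and control diet, and the genotype comparison whether they differed between *Thbs1*-knockout and WT cells on high-fat diet; both share the WT HFD library. A member in a class was called higher or lower where one library had at least 20 UMIs, the levels differed by 1.5-fold or more and their 95% intervals did not overlap. By this rule 67 of 151 member and class pairs were called in WT HFD against WT CD (43 higher, 24 lower), where 6.12% of all gene and class pairs were (4.22% higher, 1.9% lower). In KO HFD against WT HFD, 60 of 157 pairs were called (32 higher, 28 lower), beside 3.73% of all (2.05% higher, 1.68% lower). The share of members called was above the background in both comparisons, but many calls rested on 1 cell. In the diet comparison 23 of the 67 calls, and 11 of the 15 largest, had over 50% of the higher library's UMIs in a single cell. In the genotype comparison these were 15 of 60 and 8 of 15. Without the cell richest in each gene, 47 of 123 and 50 of 130 pairs were called, beside 5.72% and 3.33% of all.

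**Figure D4:**
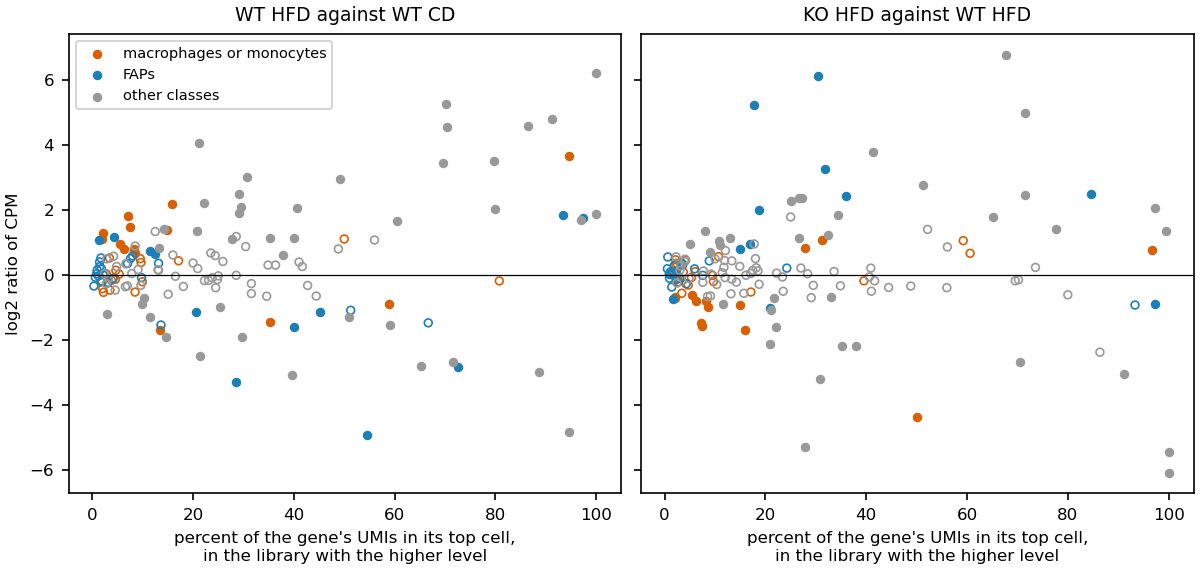
Log2 ratio of CPM for each member and class pair, in WT HFD against WT CD and KO HFD against WT HFD, by the percent of the higher library's UMIs in its richest cell; filled points passed the 1.5-fold rule. The largest ratios lie where a single cell holds most UMIs, as in 11 of the 15 largest of the diet comparison.

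The largest ratios lay outside the main sender of a gene. *Cxcl13* in MuSCs had 1 UMI in WT CD, 76 in WT HFD and 0 in KO HFD, and 1 cell held all 76. *Cxcl13* in mesothelial cells was at 261, 9.11 and 0 CPM, and 1 cell held 94.5% of the WT CD UMIs. *Ccl22*, a ligand of *Ccr4*, had 0 UMIs in WT CD dendritic cells and 34 in WT HFD, of which 91.2% were in 1 cell. *Ccl5* in dendritic cells had the largest log2 ratio of the genotype comparison, 6.77, and 3.52 without its richest cells. *Cxcl2* in MuSCs was at 1.83, 42.4 and 6.59 CPM, with 70.4% of the WT HFD UMIs in 1 cell. *Ccl21a* in dendritic cells (log2 ratio -6.09) and in macrophages (3.64 in the diet comparison, but -1.15 with clusters in place of gates) was likewise a gene of another class, the lymphatic endothelium.

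B cells carried several such macrophage genes: *Ccl4* (log2 ratio 5.26), *Pf4* (4.58), *Ccr2* (4.05), *Cxcl2* (3.49) and *Ccl2* (2.99) were higher in WT HFD than in WT CD B cells, and *Cxcl14* (-3.01) was lower. With B cells taken from clusters in place of the gate, *Pf4* (-1.88), *Cxcl2* (-3.57) and *Ccl2* (-3.29) turned lower in WT HFD, and *Ccl4* gave 1.501 and *Ccr2* 0.42. *Cxcl14* turned to 2.32 without Scrublet doublets. *Cxcl2* was seen in 2.02%, 4.52% and 2.17% of B cells, with 72.1%, 79.7% and 99.4% of its UMIs in 1 cell. FAPs likewise held rare UMIs of leukocyte genes. *Ccr2* in FAPs had 21, 2 and 85 UMIs and was seen in 0.308%, 0.10% and 0.941% of cells, and *Ccl4* had 33, 1 and 79 UMIs. *Ccl3*, *Ccl6* and *Ccl9* in FAPs were also higher in KO HFD than in WT HFD. With FAPs from clusters *Ccr2* turned to 1.67 in the diet comparison and *Ccl4* to -0.17 in the genotype comparison. In the opposite class, blood endothelial *Cxcl14* (4.98), *Ccl11* (2.27) and *Cxcl10* (2.74) were higher in KO HFD than in WT HFD, and *Ccl11* there was at 51.7, 6.02 and 29.0 CPM. *Cxcl10* in mesothelial cells was at 38.3, 82.0 and 2.06 CPM. Without Scrublet doublets, blood endothelial *Cxcl14* turned to -1.72 in the genotype comparison. The part of free RNA in these calls was not tested.

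Erythroid cells, which should lack chemokines, held 10 ligand UMIs in 60 cells, with *Cxcl2* and *Pf4* at 0. They were shallow cells, with a median of 1573 UMIs, so that 0 UMIs of *Cxcl2* allow up to 35.8 CPM by the exact interval. *Pf4*, a macrophage and platelet gene, was seen in 0.704%, 1.15% and 0.982% of FAPs, against 54.0%, 77.4% and 59.8% of macrophages. *Ccl21a* was seen in 0.308%, 0.551% and 0.491% of FAPs. Whether the *Cxcl2* UMIs of FAPs exceed free RNA was not tested.

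In FAPs 12 of 33 members were called in the diet comparison (6 higher, 6 lower), where 3.73% of all genes were (1.31% higher, 2.42% lower). Without the richest cell of each gene 4 were higher and 4 lower of 27, beside 1.26% and 2.06% of all genes. Those seen in more than rare cells were few. *Ackr2* (log2 ratio 1.06), *Ccl8* (1.17) and *Cxcl2* (0.72) were higher in WT HFD, and *Cxcl13* (-1.16) was lower. The *Dpp4* gate, which led in *Ackr2*, held 503 of 2273 FAPs in WT CD, 640 of 1996 in WT HFD and 570 of 2443 in KO HFD. The part of FAP makeup in these ratios was not tested. *Cxcl9* (0.63) was called nearest the 1.5-fold limit, and with TMM or median-of-ratios scaling 5 in place of 6 members were higher. *Cxcl13* was at 131 (126 to 136), 58.6 (55.2 to 62.1) and 28.5 (26.3 to 30.8) CPM in 4.0%, 3.76% and 1.92% of FAPs (2.74%, 2.40% and 1.05% thinned). Single cells held 20.5%, 20.9% and 33.7% of those UMIs. In the genotype comparison 11 of 32 were called (8 higher, 3 lower), where 2.71% of all genes were (2.11% higher, 0.596% lower). Without the richest cells 7 were higher and 2 lower of 29, beside 1.89% and 0.589%. With FAPs taken from clusters in place of the gate, 6 of 27 members were called in the diet comparison and 4 of 25 in the genotype comparison (1 higher, 3 lower), beside 2.79% and 1.81% of all genes. *Cxcl13* (-1.04) and *Ackr4* (-0.76) were lower in KO HFD, and *Cxcl5* (0.93), at under 4 CPM, was higher. The abundant FAP ligands *Cxcl1*, *Cxcl14*, *Ccl11* and *Cxcl12* were called in neither comparison.

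In MuSCs 7 of 13 members were called in the diet comparison, where 10.6% of all genes were. The median log2 ratio of all genes there was 0.23. *Ccl7*, at 72.5 (60.1 to 86.8), 193 (172 to 215) and 164 (150 to 179) CPM, was higher in WT HFD. *Cxcl10*, at 36.6 (27.9 to 47.1), 156 (137 to 176) and 124 (111 to 137) CPM, was higher too, with a log2 ratio of 2.09, and 2.07 without its richest cells. *Ccl2*, at 233, 125 and 238 CPM, *Ccl11*, at 243, 147 and 241 CPM, and *Ackr3*, at 170, 73.4 and 107 CPM, were lower. *Ccl2* and *Ccl11* were called higher again in KO HFD. *Cxcl1*, the leading ligand of MuSCs, was at 714, 551 and 662 CPM and was not called. Of the genes induced by tissue dissociation, 0 of 12 were higher and 2 lower in MuSCs in the diet comparison, with a median log2 ratio of -0.29. Over all genes there, 8.99% were higher and 1.59% lower. None of the dissociation genes was called in MuSCs in the genotype comparison. Their part in the MuSC values was not tested.

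In macrophages, 14 of 31 members were called in the diet comparison (11 higher, 3 lower), beside 7.52% of all genes (4.81% higher, 2.71% lower). With TMM scaling 11 were higher and 5 lower, beside 4.24% and 3.30% of all genes, and with median-of-ratios scaling 11 and 4. In the genotype comparison 14 of 33 were called (3 higher, 11 lower), beside 5.22% (2.33% higher, 2.89% lower). Without the richest cell of each gene 10 were higher and 2 lower of 28, beside 5.16% and 2.32%, and 1 was higher and 11 lower of 29, beside 2.18% and 2.75%. *Pf4*, platelet factor 4, was at 954 CPM (920 to 989), 2296 (2253 to 2340) and 1392 (1362 to 1422), and was seen in 54.0%, 77.4% and 59.8% of cells (49.8%, 73.3% and 55.1% thinned). *Cxcl1* was at 123, 430 and 154 CPM, *Cxcl13* at 62.6, 281 and 85.6, *Ccrl2* at 121, 209 and 120, *Ccl24* at 135, 232 and 131, and *Cxcl16* at 52.6, 102 and 66.5. Each was highest in WT HFD. *Cxcl9*, an interferon-induced ligand of *Cxcr3*, was at 79.1 (69.5 to 89.6), 24.1 (19.9 to 29.1) and 35.4 (30.8 to 40.5) CPM, and *Ccl17*, a ligand of *Ccr4*, at 28.4, 10.3 and 21.6, lowest in WT HFD.

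The makeup of the macrophages also differed between libraries. Cells with markers of serous cavity macrophages (*Prg4*, *Alox15*, *Gata6*, *Saa3*) numbered 4, 55 and 14, and the 4 markers summed to 236, 593 and 316 CPM over all cells of the libraries. *Prg4* made up most of these sums, with 6090 of 8090, 13919 of 18961 and 8115 of 11542 UMIs, so that they do not measure the number of gated cells. In WT HFD these 55 of 442 cells held 51.5% of macrophage *Cxcl2* UMIs, 78.8% of *Cxcl1*, 80.8% of *Cxcl13* and 52.0% of *Ccrl2*, but 25.1% of *Pf4* and 9.30% of *Cxcl16*. Within the cavity gate *Cxcl2* reached 10527, 26029 and 14825 CPM, *Cxcl1* 946, 1900 and 699, and *Ccr2* 77.5, 4.84 and 0. *Cxcl2* was higher in the cavity gate than in the other macrophage gates of each library. The WT CD value of *Ccr2* came from 5 UMIs in 4 cells.

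Without the cavity gate, *Cxcl2* stood at 4098, 5318 and 5294 CPM, *Cxcl1* at 105, 111 and 135, *Cxcl13* at 63.9, 65.6 and 20.8, and *Ccrl2* at 113, 122 and 116. These 4 genes and *Cxcl3* were no longer called in the diet comparison, and *Ccl3*, at 125, 175 and 94.5 CPM, was called only in KO HFD against WT HFD. *Cxcl13* was still called lower in KO HFD (log2 ratio -1.66). *Ccl7*, at 299, 464 and 284 CPM, became called in both comparisons (0.63 and -0.71), *Ccr1* lower in the diet comparison (-0.88) and *Ccl4*, at 194, 286 and 177 CPM, lower in the genotype comparison (-0.69). *Pf4*, at 868, 2094 and 1278 CPM, *Cxcl16*, at 52.4, 113 and 66.5, and *Ccl24*, at 133, 226 and 128, were still called higher in WT HFD and lower in KO HFD, and *Ccl17*, at 29.0, 12.6 and 22.3, the other way. With macrophages from clusters, however, *Ccl17* gave a log2 ratio of -0.38 in the genotype comparison. In all, 5 members were higher and 5 lower of 30 in the diet comparison without these cells, beside 4.13% and 2.51% of all genes. In the genotype comparison 1 was higher and 9 lower of 33, beside 1.96% and 1.88%.

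**Figure D5:**
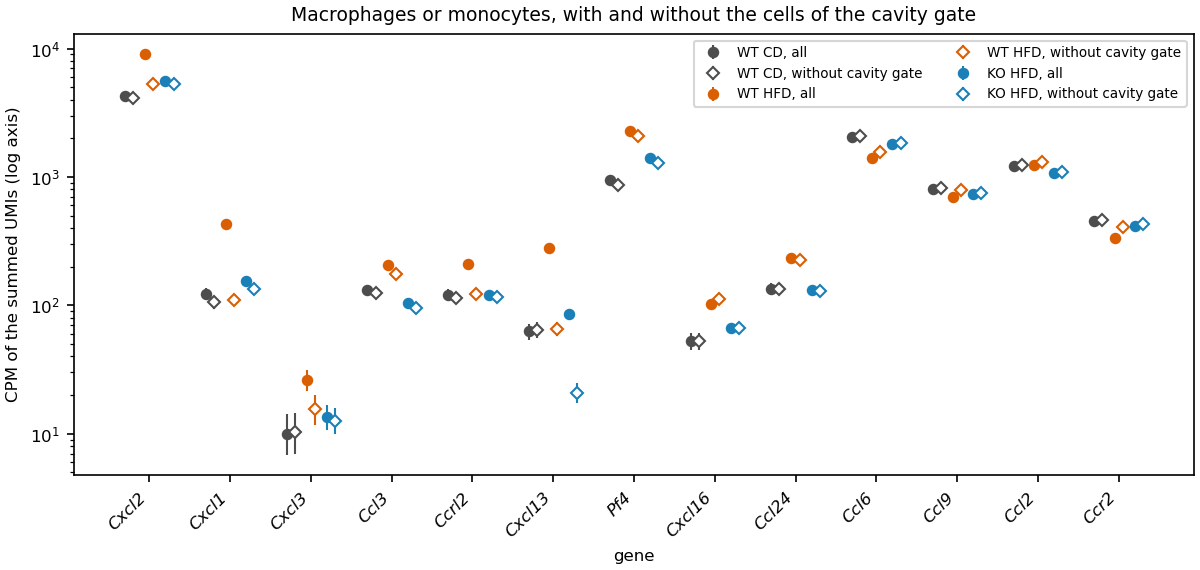
CPM (log axis) of 13 members in macrophages of each library, over all macrophages and without the cells that carry cavity macrophage markers, with 95% Poisson intervals. *Cxcl1* falls from 430 to 111 CPM in WT HFD when these cells are left out, while *Pf4* remains highest in WT HFD.

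The other gates placed the remaining members. Cells with resident macrophage markers (*Folr2*, *Cd163*, *Timd4*, *Vsig4*; 30, 97 and 84 cells) led in *Ccl2*, at 2225, 2685 and 2946 CPM, and *Ccl12*, at 1076, 622 and 1393. *Pf4* was at 3594 (3349 to 3852), 4899 (4740 to 5062) and 4883 (4709 to 5062) CPM there, where the high-fat libraries overlapped. Among macrophages in no subset gate (187, 245 and 304 cells) *Pf4* was at 756 (720 to 793), 1726 (1675 to 1779) and 1189 (1153 to 1226) CPM, again highest in WT HFD. The *Mmp12* and *Retnla* gate (28, 31 and 72 cells) led in *Ccl6*, at 2766, 2103 and 2410 CPM, and had *Ccr2* at 482, 449 and 443. Cells with monocyte markers (*Ly6c2*, *Plac8*, *Chil3*, *Ace*; 14, 14 and 48 cells) carried *Ccr2* at 485, 500 and 439 CPM and led in *Cx3cr1*, at 137, 155 and 208, and *Cxcr4*, at 211, 238 and 237. *Ccr2* was low in resident cells, at 9.01, 50.7 and 50.9 CPM. *Ccr2* in macrophages of no subset gate was even, at 500 (471 to 531), 501 (473 to 530) and 487 (464 to 510) CPM.

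Genes that act with chemokines were read from fixed lists. Of the receptor signalling genes (G protein subunits, arrestins, receptor kinases and regulators), 0 were higher and 2 lower of 14 in FAPs in the diet comparison (median log2 ratio -0.01), and 4 higher and 0 lower of 15 in the genotype comparison (0.20). The lower genes were *Rac2* and *Rgs16*, and the higher ones *Rac2*, *Dock2*, *Rgs1* and *Rgs2*. *Rac2* and *Dock2*, which leukocytes use to move, had at most 58 and 39 UMIs in the FAPs of a library, and *Rgs2*, at 25.03, 17.2 and 29.1 CPM, was the most abundant. The medians of all genes in FAPs were 0.07 and -0.03. In macrophages none of 15 was called in either comparison, with medians of 0.04 and -0.04. Of genes for chemokine processing and heparan sulfate, which presents chemokines on cell surfaces, none of 10 was called in FAPs. In macrophages 1 was higher and 3 lower of 11 in the diet comparison, and 1 was higher of 12 in the genotype comparison (*Sdc1*, at 30.7, 22.2 and 37.5 CPM). Over all genes in macrophages, 4.81% were higher and 2.71% lower in the diet comparison, and 2.33% were higher in the genotype comparison. The lower ones were *Dpp4*, *Mmp2* and *Mmp9*. The higher one in WT HFD was *Mmp12*, a macrophage elastase that cleaves chemokines, at 145, 318 and 332 CPM in WT CD, WT HFD and KO HFD.

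Of 9 NF-kappaB pathway genes in macrophages, 2 were higher and 1 lower in the diet comparison. Counts of these short lists stand beside 7.52% of all genes called in macrophages and 3.73% in FAPs in the diet comparison, and 5.22% and 2.71% in the genotype comparison. *Nfkbia*, the inhibitor that NF-kappaB induces, was at 741, 1137 and 887 CPM, *Il6* at 39.0, 110 and 29.6, and *Il1b* at 268, 131 and 186. *Il6* and *Nfkbia* were highest in WT HFD and *Il1b* lowest. The lists were not read without the cells with cavity macrophage markers, whose part in the macrophage values was not tested. *Il6* was also called lower in KO HFD than in WT HFD. Of the interferon-gamma response genes, 1 of 6 was lower in WT HFD macrophages and none was called in the genotype comparison. That gene, *Irgm1*, was at 72.3, 46.6 and 67.7 CPM. In FAPs it was the 1 of 6 higher in KO HFD, at 69.4, 59.5 and 92.3 CPM. Of the NF-kappaB genes in FAPs, *Tnf*, at 4.5, 2.17 and 3.18 CPM, was lower in WT HFD, and 2 of 10 were higher in KO HFD. These were *Il6*, at 33.8, 39.2 and 59.7 CPM, and *Il1b*, at 0.643, 0.901 and 2.49 CPM. Genes induced by tissue dissociation were read as a check on handling, since *Cxcl1*, *Cxcl2* and *Ccl2* are also rapidly induced genes. In macrophages 0 of 12 were higher and 2 lower in WT HFD: *Hspa1a*, at 917, 605 and 726 CPM, and *Hspa1b*, at 703, 358 and 450. The same pair was lower in WT HFD FAPs, and none was called in FAPs in the genotype comparison, with a median log2 ratio of 0.32. The part of handling in the chemokine levels was not tested.

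Platelets, the classical source of *Pf4* and *Ppbp*, were nearly absent from the data. Their markers summed to 6.30, 6.38 and 7.79 CPM, and *Treml1* was at 0 in WT CD and WT HFD. *Ppbp* had 21 UMIs in all, of which 95.2% were in macrophages, the class that also held 95.4% of *Pf4*. Neutrophil markers summed to 77.6, 142 and 131 CPM.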

How the data were processed

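The authors deposited UMI counts per gene and cell barcode for 3 libraries made with 10x Genomics 3′ v3.1 chemistry. Per the submitters' processing notes they came from Cell Ranger 6.1.1 and mm10 (GRCm38). Files were used as deposited, and 0 columns belonged to other series. All barcodes in the files were kept.

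Members and gene lists were chosen with earlier results of these data known, and gates were set while they were compared with clusters built without the members. A cell joined the class with the highest share of markers at 1 or more per 10000 UMIs (FAPs 3), with at least 3 such markers (dendritic cells 2) and a lead of 15% of the list over the next class. Classes of at least 50 cells were compared. Counts were summed per class and library and divided by the class total to give CPM, with exact Poisson intervals. Shares have Clopper-Pearson intervals. Cells are not replicates, so no p-value was computed. The named genes were the 3 leading ligands and receptors of each class, the members of known ligand and receptor axes, and the 15 largest called pairs of each comparison. The motif searched was the NF-kappaB consensus, on both strands.

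Alternatives were 34 Leiden clusters (scanpy 1.11.5, leidenalg 0.10.2), removal of Scrublet doublets (1.26%, 1.09% and 1.33% of cells, kept in the values reported), cells with at least 500 genes and at most 10% mitochondrial UMIs, TMM (edgeR 4.0.16 in R 4.3.3) and median-of-ratios scaling, a stricter gate, removal of the richest cell, other UMI minimums, the mean of single-cell CPM, and thinning to 3000 UMIs. Python 3.11.15, numpy 2.4.6, scipy 1.17.1 and pandas 2.3.3 were used. Amino acid sequences were not used here. The levels of 1 member are not reported here; its UMIs remain in the sums and counts.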

Additional observations from a re-analysis of the deposited data

How the results depend on the processing

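No paired analysis was possible because each group was 1 library and no test was run. The share of ligand UMIs in macrophages, 46.9%, became 49.7% with clusters in place of gates, 47.7% without doublets, 47.2% with the filter on genes and mitochondrial UMIs, and 44.9% with the stricter gate. The share in FAPs, 34.0%, became 32.9%, 34.2% and 33.8% with clusters, the filter and the stricter gate. The share of receptor UMIs in macrophages, 62.8%, became 68.4% with clusters, 64.3% without doublets and 58.7% with the stricter gate, and that in B cells, 10.7%, became 9.96% with clusters. Counts of called pairs stayed within 1.5 times of 67 and 60 under each alternative run, but with clusters only 38 and 36 pairs were shared with the gates.

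Among the named pairs, log2 ratios that changed sign were mostly of genes outside their main sender, and the cause was not tested. With clusters, the diet comparison gave -0.03495 for *Cxcl13* in MuSCs, -1.88 for *Pf4*, -3.57 for *Cxcl2* and -3.29 for *Ccl2* in B cells, -1.15 for *Ccl21a* in macrophages and 1.67 for *Ccr2* in FAPs. With clusters, the genotype comparison gave -0.17 for *Ccl4* and -1.41 for *Ccl21a* in FAPs, 0.87 for *Cxcl13* in MuSCs, 0.51 for *Ccl5* and -0.38 for *Ccl17* in macrophages, 1.12 for *Ccl2* in B cells and 0.97 for *Ccl22* in dendritic cells. Without doublets *Cxcl14* gave 2.32 in B cells (diet) and -1.72 in blood endothelium (genotype). Without the richest cell *Cxcl13* in MuSCs gave -0.03053 and *Cxcl14* in B cells 0.12 (diet), and *Ccl21a* in FAPs -0.06322 (genotype). Of all called pairs, not just those named, these also turned without the richest cell: in the diet comparison FAP *Ccl24* (-0.49), FAP *Ccl5* (-3.36) and dendritic *Cxcl2* (-2.55), and in the genotype comparison dendritic *Cxcl1* (-3.17), B cell *Cxcl2* (-3.80) and FAP *Ccl5* (3.55). Without the cavity gate, an alternative chosen after seeing the data, macrophage *Ackr3* gave -1.44 (diet) and 0.32 (genotype), *Cxcl1* 0.28 and *Ccl21a* -4.43 (genotype). By the share of thinned cells with a UMI, macrophage *Ccl8* gave 0.42 (diet) and *Cxcl2* 0.003165 (genotype).

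Many log2 ratios of named pairs kept their sign but moved by more than their counting interval: 16 of 60 with clusters (13 more reversed), 16 of 60 without the richest cell, 13 of 56 by the mean of single-cell CPM, 28 of 47 by the share of thinned cells, 9 of 27 without the cavity gate, 5 of 60 with the stricter gate and 4 of 60 without doublets. The scalings moved 1 of 60 each and the cell filter 0, and neither reversed any, but scaling changed the class counts given for FAPs and macrophages. With 1 library of pooled mice per group, differences between mice, handling and library cannot be told apart from diet and genotype. Depth limits the members of few UMIs: *Ccr3*, *Ccr4*, *Ppbp* and *Ccr10* were too sparse to compare between libraries.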

Other observations

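Ungated cells (820 in all) held 62.4% of the UMIs of *Ccl22* and 37.8% of those of *Ccl17*, both ligands of *Ccr4*, and 53.6% of the 28 UMIs of *Ccr8*. *Ccl1*, a ligand of *Ccr8*, had 53.4% of its 204 UMIs in T or NK cells and 34.8% in ungated cells. *Ccl17* had 141, 142 and 440 UMIs in WT CD, WT HFD and KO HFD, and *Ccl22* had 17, 52 and 229, so that KO HFD held the most of both. Of these, 10, 41 and 222 of *Ccl17* and 0, 2 and 184 of *Ccl22* lay in ungated cells, so that the ungated shares come mainly from KO HFD. *Ccr9* had 61, 16 and 16 UMIs, and 44.1% of all its UMIs lay in FAPs. Its gene overlaps others on the same strand, so that this count is uncertain.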
